A study of Mus musculus with 9 samples.

Results

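The 9 organic ion and drug transporters described here are Slco1a1, Slc22a7, Slc22a2, Slc22a4, Slc22a5, Slc47a1, Slco4c1, Abcb1a and Abcc2. They were chosen by gene symbol from the 55385 genes of the deposited table, and their changes in these libraries, HN against Control and PEC against HN, were known when they were chosen. Their levels, fold changes and calls are therefore a description, with no p-value. All 9 had enough counts to be fitted.

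Organic ion transporters carry charged drugs, toxins and metabolites across the epithelium of the proximal tubule. Uptake carriers of the SLC22 and SLCO families take organic anions and cations from the blood into the tubular cell, while exporters of the SLC47 and ABC families release them into the lumen. Some SLC22 carriers sit on the luminal side and recover solutes such as carnitine and urate from the filtrate.

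The series holds poly(A) RNA sequencing of mouse kidney in hyperuricemic nephropathy (HN), a kidney disease driven by high uric acid. It asks how the kidney transcriptome differs in HN and after treatment with pectolinarigenin (PEC), a flavonoid. There were 9 libraries, 3 of each group, and they are named here by group and by the number in their titles: Control 2, 4 and 5, HN 4, 8 and 12, and PEC 1, 2 and 3. Nothing in the labels says in words that each library came from a separate mouse, so the spread given is the spread between these libraries.

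The labels give C57BL/6 as the strain of all 9 libraries and kidney as the tissue, while their extraction protocol speaks of RNA of an adipose type. The study's methods add that the mice were male C57BL/6J, aged 8 to 10 weeks at the start, with 8 mice per group. Control libraries are labelled as control and untreated, although the titles of all 9 libraries, Control included, speak of HN mice; groups were taken from the disease state and treatment. One HN library bears the number 12, above the number of mice per group in the methods. HN libraries are labelled as HN and untreated, and by the study's methods these mice received adenine at 0.16 g/kg and potassium oxonate at 2.4 g/kg for 4 weeks. PEC libraries are labelled as HN treated with Pectolinarigenin, and the labels give no dose. The study's methods give the same adenine and oxonate with daily PEC by mouth, at 25 mg/kg or at a higher dose. Its transcriptome results name the 25 mg/kg group, which is taken here as the group sequenced. HN and PEC libraries thus shared the adenine and oxonate, and Control libraries had neither. Adenine itself injures tubules, so the HN group is a model of adenine and oxonate together.

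Total counts ran from 57714111 in PEC 3 to 81069646 in HN 8, with a median of 74397038. Mitochondrial genes took 14.2 ± 1.82% of counts in Control, 6.19 ± 0.164% in HN and 12.3 ± 1.77% in PEC (mean ± SD, n = 3 each, as throughout). Levels are the deposited FPKM (fragments scaled for transcript length and library size) divided by the library's TMM factor, which corrects for genes that take a large share of the counts, and are called normalised FPKM. With library totals in place of TMM, the median log2 fold change of all 21392 genes tested moved from 0.00 to 0.56 for HN against Control, from −0.02 to −0.21 for PEC against HN and from 0.04 to 0.40 for PEC against Control. Fold changes below are from the TMM-scaled counts, and a gene is called where its fold change is at least 1.5 and its adjusted p at most 0.05.

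Some libraries stood apart. Genes at ribosomal RNA loci took 0.296%, 1.72% and 0.302% of counts in PEC 1, 2 and 3, against 0.00196% to 0.00419% in the other 6 libraries. This difference set the whole PEC group apart, and its part in the comparisons with PEC was not tested. The 5 adipose markers, of which Cfd was the most abundant in every library but PEC 1, where it was at 0 and Adipoq led, summed to 17.5, 0.264 and 0.0643 normalised FPKM in Control 2, 4 and 5, to 1.17, 0.0665 and 38.6 in HN 4, 8 and 12, and to 0.0383, 0.480 and 384.5 in PEC 1, 2 and 3. Adipoq and Plin1 were at 0 in Control 4, Control 5, HN 8 and PEC 2. The 4 adipose markers tested had median log2 fold changes of 1.11 in HN against Control, 3.46 in PEC against HN and 4.40 in PEC against Control, and edgeR called none of them (smallest adjusted p 0.200). The deposited Adipoq FPKM was above 1 in Control 2, HN 12 and PEC 3 alone. These are called the 3 libraries with adipose marker RNA, although others held traces. Without these 3, the calls of the 9 transporters were the same except that Abcb1a was no longer called in PEC against HN.

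HN against Control and PEC against HN share the HN libraries, and PEC against Control shares libraries with both, so the values of each comparison are given side by side. In HN against Control, 8 of the 9 transporters were called lower and 0 higher, where 14.7% of all genes tested were called lower and 17.7% higher. The median log2 fold change of the 9 was −1.57, against 0.00 for all genes tested. The same 8 had HN levels below every Control level, a pattern found in 28.2% of all genes, and none had HN levels above every Control level (27.3% of all genes). Abcb1a was the exception in both counts, and its log2 fold change with limma on log2(FPKM + 0.1) was 0.92 and called higher. In PEC against HN, 4 were called higher (13.4% of all genes) and 1 lower (15.3%), with a median log2 fold change of 0.84 against −0.02 for all genes. In the same comparison 5 transporters had PEC levels above every HN level (25.5% of all genes) and 2 had PEC levels below every HN level (29.7%). In PEC against Control, 6 were called lower (17.4% of all genes) and 0 higher (18.9%), and the median was −1.03 against 0.04. For 8 of the 9, PEC levels lay below every Control level (29.6% of all genes), and for 0 above (27.5%). In whole kidney, fewer cells of a type and less RNA per cell cannot be told apart.

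**Figure D1:**
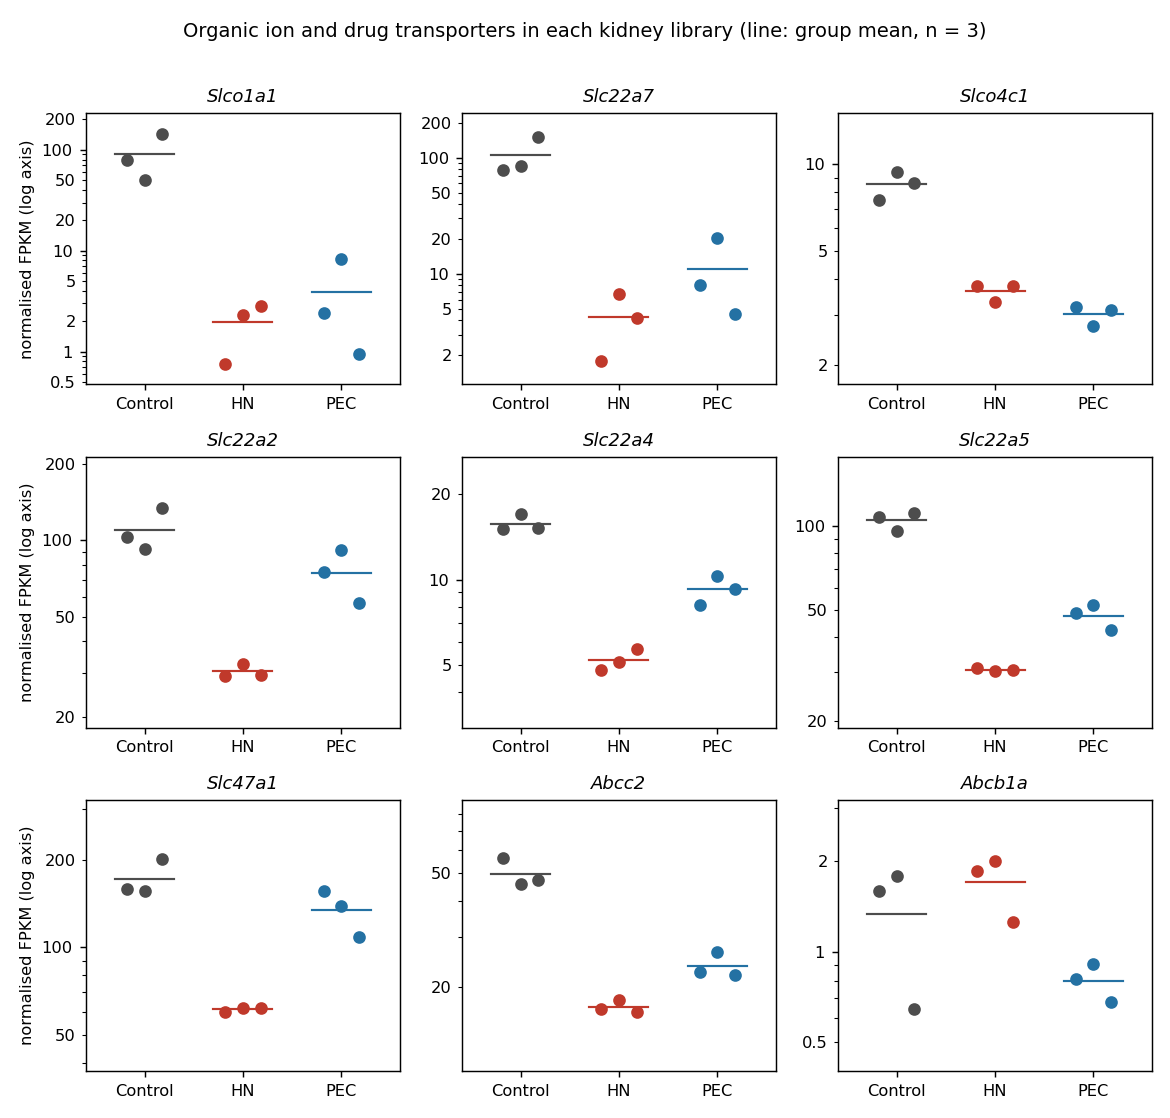
Normalised FPKM of the 9 transporters in each library, on a log axis, with a line at each group mean (n = 3). Slco1a1 fell from 50.7 or more in every Control library to 2.82 or less in every HN library, while the Abcb1a levels of Control and HN overlapped.

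The anion carriers come first. Slco1a1 encodes an organic anion transporting polypeptide that in the mouse kidney is known for higher levels in males. Its level was 79.9, 50.7 and 144 normalised FPKM in Control 2, 4 and 5, 0.758, 2.30 and 2.82 in HN 4, 8 and 12, and 2.39, 8.28 and 0.937 in PEC 1, 2 and 3. Every HN and PEC library was far below every Control library, and the HN and PEC ranges overlapped, with PEC 2 the highest of those 6. The log2 fold change was −5.51 ± 0.90 (SE) in HN against Control, a level 45.7-fold lower. It was 0.98 ± 0.75 in PEC against HN, not called, and −0.21 without PEC 2. In PEC against Control it was −4.53 ± 0.86, called lower, and leaving out 1 library at a time, or the 3 with adipose marker RNA, gave −5.72 to −4.05. HN and PEC means were 2.14% and 4.23% of the Control mean.

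Slc22a7 encodes organic anion transporter 2, a carrier of organic anions and cyclic nucleotides. Its level was 77.9, 84.7 and 150.4 normalised FPKM in Control 2, 4 and 5, 1.80, 6.66 and 4.21 in HN 4, 8 and 12, and 8.02, 20.5 and 4.47 in PEC 1, 2 and 3. Control libraries were again the highest with no overlap, and PEC 3 lay inside the HN range while PEC 1 and PEC 2 lay above it. Its log2 fold change was −4.60 ± 0.67 in HN against Control, 24.2-fold lower, and −3.21 ± 0.63 in PEC against Control, 9.27-fold lower. Leaving out 1 library at a time, or the 3 with adipose marker RNA, gave −4.005 to −2.824 in PEC against Control, always called. The log2 fold change of PEC against HN was 1.38 ± 0.60 and not called. That value was 1.77 and called without PEC 3, and was 0.59 without PEC 2.

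Slco1a1 and Slc22a7 varied the most of the 9 within HN and within PEC, and Slco1a1 and Abcb1a within Control. The highest library was 2.84, 3.72 and 8.84 times the lowest for Slco1a1 in Control, HN and PEC, and 1.93, 3.71 and 4.57 times for Slc22a7. For Abcb1a it was 2.77 times in Control.

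Slco4c1 encodes a basolateral organic anion transporting polypeptide known for the uptake of digoxin and of uremic toxins. Its level was 7.54, 9.41 and 8.63 normalised FPKM in Control 2, 4 and 5, 3.76, 3.32 and 3.78 in HN 4, 8 and 12, and 3.19, 2.75 and 3.13 in PEC 1, 2 and 3. All 3 groups were apart, with Control highest and PEC lowest. Log2 fold changes were −1.21 ± 0.12 in HN against Control and −1.45 ± 0.12 in PEC against Control, both called lower. HN against Control was −0.57 and not called with limma on log2(FPKM + 1). PEC against HN gave −0.24 ± 0.12, not called, and 0.48, also not called, after removal of the dependence on gene length and GC content. That refit, here and below, used limma on TMM-scaled log2 counts in place of edgeR, so the test differed as well. Of the 8 transporters called lower in HN mice, Slco4c1 had the lowest PEC level as a share of Control, 35.5%, after Slco1a1 and Slc22a7.

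The cation carriers were higher in PEC than in HN. Slc22a2 encodes organic cation transporter 2, which takes metformin and cisplatin into the proximal tubule from the blood. Its level was 103, 92.5 and 134 normalised FPKM in Control 2, 4 and 5, 29.1, 32.6 and 29.4 in HN 4, 8 and 12, and 75.1, 91.8 and 56.6 in PEC 1, 2 and 3. The HN libraries lay close together below both other groups, and the highest PEC library, PEC 2, came just under the lowest Control library. On the deposited FPKM the PEC and Control ranges overlapped. The log2 fold change was −1.83 ± 0.18 in HN against Control and 1.31 ± 0.18 in PEC against HN, both called. PEC against Control was −0.52 ± 0.18 and not called. It was called lower without Control 4 (−0.63), without PEC 2 (−0.69) and after removal of length and GC dependence (−0.91).

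Slc47a1 encodes the multidrug and toxin extrusion protein that exports organic cations into the lumen, the step after uptake by organic cation transporter 2. Its level was 158, 156 and 201 normalised FPKM in Control 2, 4 and 5, 60.1, 61.6 and 62.0 in HN 4, 8 and 12, and 156, 139 and 109 in PEC 1, 2 and 3. HN libraries were the lowest with no overlap, and PEC 1 came within 1 unit of the lowest Control library. The log2 fold change was −1.46 ± 0.14 in HN against Control and 1.15 ± 0.14 in PEC against HN, both called. PEC against Control was −0.31 ± 0.14 and not called. That value was −0.64 and called after removal of length and GC dependence, and its sign changed, to 0.05 with library totals and to 0.02 with totals without mitochondrial genes. On the deposited FPKM the PEC and Control ranges overlapped. Its PEC mean, 78.2% of Control, was the highest share of the 9.

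Slc22a5 encodes the carnitine transporter of the luminal membrane. Its level was 108, 96.4 and 111 normalised FPKM in Control 2, 4 and 5, 31.0, 30.3 and 30.3 in HN 4, 8 and 12, and 48.6, 52.1 and 42.3 in PEC 1, 2 and 3. The 3 groups did not overlap, and PEC lay between HN and Control. The log2 fold change was −1.76 ± 0.09 in HN against Control, 0.66 ± 0.09 in PEC against HN and −1.10 ± 0.09 in PEC against Control, all called. PEC against HN was not called with library totals (0.46), with totals without mitochondrial genes (0.56) or with limma on log2(FPKM + 1) (0.43) and log2(FPKM + 0.1) (0.44).

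Slc22a4, the neighbouring gene of the same subfamily, encodes a carrier of the antioxidant ergothioneine. Its level was 15.05, 16.9 and 15.2 normalised FPKM in Control 2, 4 and 5, 4.81, 5.11 and 5.71 in HN 4, 8 and 12, and 8.12, 10.3 and 9.28 in PEC 1, 2 and 3. The order of the groups was that of Slc22a5, with no overlap. Log2 fold changes were −1.57 ± 0.12 in HN against Control, 0.84 ± 0.11 in PEC against HN and −0.73 ± 0.11 in PEC against Control, all called. PEC against HN was 0.55 and not called with limma on log2(FPKM + 1), and PEC against Control for Slc22a4 was not called with library totals (−0.37), with totals without mitochondrial genes (−0.40) or limma on log2(FPKM + 1) (−0.38).

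The ABC exporters differed from each other. Abcc2 encodes multidrug resistance-associated protein 2, a luminal exporter of glutathione and glucuronide conjugates. Its level was 56.2, 45.8 and 47.3 normalised FPKM in Control 2, 4 and 5, 16.8, 18.0 and 16.3 in HN 4, 8 and 12, and 22.7, 26.6 and 22.0 in PEC 1, 2 and 3. The 3 groups did not overlap, with PEC nearer to HN than to Control. Log2 fold changes were −1.52 ± 0.11 in HN against Control and −1.03 ± 0.11 in PEC against Control, both called lower. In PEC against HN it was 0.50 ± 0.10, short of the fold change of a call, and 1.08 and called after removal of length and GC dependence.

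Abcb1a encodes P-glycoprotein, the efflux pump that mice also make from Abcb1b. Its level was 1.59, 1.78 and 0.643 normalised FPKM in Control 2, 4 and 5, 1.85, 1.99 and 1.25 in HN 4, 8 and 12, and 0.813, 0.910 and 0.679 in PEC 1, 2 and 3. Control 5 was as low as the PEC libraries, and every PEC library was below every HN library. On the deposited FPKM, every HN library was above every Control library. Log2 fold changes were 0.36 ± 0.35 in HN against Control, −1.06 ± 0.35 in PEC against HN and −0.70 ± 0.35 in PEC against Control, and only the value of PEC against HN was called. That call was lost without HN 4 (−1.01), HN 8 (−0.94), PEC 1 (−1.08), PEC 2 (−1.16) or PEC 3 (−0.94), without the 3 libraries with adipose marker RNA (−1.12), and after removal of length and GC dependence (−0.64). PEC against Control was −1.04 and called without Control 5. Its count of 234 in Control 5 was the lowest of any of the 9 in any library, and Slco1a1 had 50383 in that library.

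**Figure D2:**
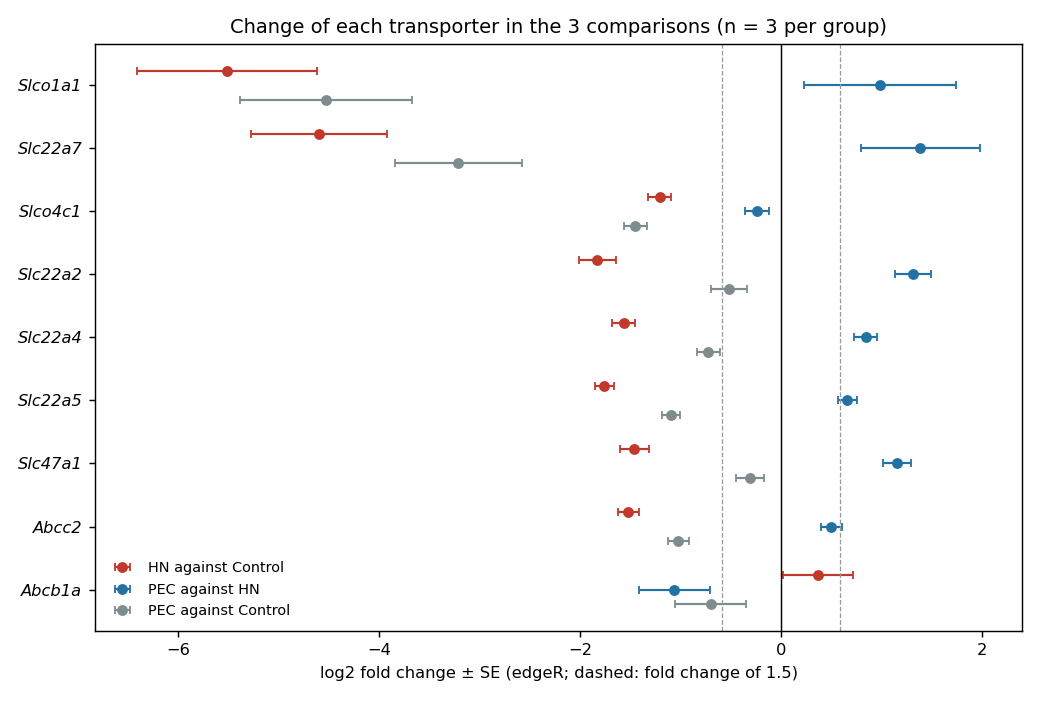
Log2 fold change of the 9 transporters in each comparison, with bars of 1 standard error. The values of HN against Control run from −5.51 for Slco1a1 to 0.36 for Abcb1a, and 7 of the 9 values of PEC against HN are above 0, although Slco1a1 went to −0.21 without PEC 2 and Slco4c1 to 0.48 after removal of length and GC dependence.

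The order of the levels differed between the groups. In Control, Slc47a1 was highest at 172 ± 25.2 normalised FPKM with no overlap with the next, and the ranges of each neighbouring pair overlapped from Slc22a2 (110 ± 21.6) through Slc22a5 (105 ± 7.74), Slc22a7 (104 ± 40.1) and Slco1a1 (91.5 ± 47.7) to Abcc2 (49.8 ± 5.62). Slc22a4, Slco4c1 and Abcb1a followed, each apart from the next. In HN, Slc47a1 was again highest and apart at 61.2 ± 1.01. Slc22a5 (30.5 ± 0.398) and Slc22a2 (30.4 ± 1.93) overlapped, and Abcc2 followed apart at 17.0 ± 0.868. Slc22a4 (5.21 ± 0.459), Slc22a7 (4.22 ± 2.43) and Slco4c1 (3.62 ± 0.265) then overlapped in turn, and Slco1a1 (1.96 ± 1.07) had moved below them, to overlap with Abcb1a (1.70 ± 0.394). In PEC, Slc47a1 (134 ± 23.7), Slc22a2 (74.5 ± 17.6), Slc22a5 (47.6 ± 4.97) and Abcc2 (23.8 ± 2.49) were each apart from the next. Slc22a7 (11.0 ± 8.40), Slc22a4 (9.24 ± 1.09), Slco1a1 (3.87 ± 3.89) and Slco4c1 (3.02 ± 0.240) then overlapped with their neighbours, and Abcb1a was lowest at 0.801 ± 0.116.

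Summed over the 9, Control libraries held 658 ± 136 normalised FPKM, HN libraries 156 ± 5.93 and PEC libraries 308 ± 53.8. Of the summed level of all 56 transporters listed, Slc47a1 held 6.45 ± 0.370% in Control, 9.92 ± 0.582% in HN and 12.4 ± 1.41% in PEC. Control 5 was the highest Control library for 5 of the 9 and Control 4 for 3. HN 8 and HN 12 were each the highest HN library for 4, and PEC 2 was the highest PEC library for 7.

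Position and sequence are shared by some of the 9. On GRCm38, Slc22a5 (chr11:53864542-53891660) and Slc22a4 (chr11:53983123-54028090) lie on the minus strand on both sides of Slc22a21, which is 58.3 kb and 2.8 kb away. Slc47a1 (chr11:61343401-61378345) lies 0.5 kb from Slc47a2, and Abcb1a (chr5:8660077-8748575) 49.6 kb from Abcb1b. Slco1a1 (chr6:141907282-141946962) lies 51.1 kb from Slco1a4. Slc22a2 (chr17:12584132-12628488), Slc22a7 (chr17:46432183-46438457), Slco4c1 (chr1:96816270-96872171) and Abcc2 (chr19:43782192-43840740) are the others. Of the 50-base stretches in its transcripts, Slc22a5 shared 27.1% with other genes, mostly Slc22a21, and Abcb1a 17.0% with mostly Abcb1b, while Slc22a7, Slc47a1 and Slco4c1 shared 0. In Abcb1a, 10.1% of the exon bases overlap Gm42686 on the opposite strand.

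RefSeq promoters on GRCm38.p6, running from 250 bases before the start to 50 after it, were matched for 7 of the 9, and none was matched for Slc22a7 or Slc47a1. The Abcb1a promoter matched, chr5:8566841-8567140, lies far before the start of that gene in the deposited table, chr5:8660077. It is counted among the 7. Promoters of 4 genes called lower in HN against Control are printed, as examples of matches to the motifs searched on both strands. Slco4c1 also holds a match and is not printed. The first 2 hold AGGTCA (or TGACCT), the nuclear receptor half-site, and the next 2 hold the GC box GGGCGG (or CCGCCC). Capitals mark those letters, and adjoining capitals in Slc22a5 are overlapping matches. They are Slco1a1 (chr6:141946913-141947212, minus strand), Abcc2 (chr19:43782058-43782357, plus strand), Slc22a4 (chr11:54028055-54028354, minus strand) and Slc22a5 (chr11:53891654-53891953, minus strand).
Slco1a1: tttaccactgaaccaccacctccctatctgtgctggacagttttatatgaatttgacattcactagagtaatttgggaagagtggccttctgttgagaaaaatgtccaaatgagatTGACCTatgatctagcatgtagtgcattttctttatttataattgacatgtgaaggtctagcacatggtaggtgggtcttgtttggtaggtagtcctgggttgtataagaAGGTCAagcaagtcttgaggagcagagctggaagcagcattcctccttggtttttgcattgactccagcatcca
Abcc2: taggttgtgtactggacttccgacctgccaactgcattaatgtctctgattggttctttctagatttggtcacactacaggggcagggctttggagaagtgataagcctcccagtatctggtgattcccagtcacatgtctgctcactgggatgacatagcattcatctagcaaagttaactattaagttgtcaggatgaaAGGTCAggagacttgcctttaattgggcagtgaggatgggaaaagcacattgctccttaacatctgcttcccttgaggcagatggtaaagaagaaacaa
Slc22a4: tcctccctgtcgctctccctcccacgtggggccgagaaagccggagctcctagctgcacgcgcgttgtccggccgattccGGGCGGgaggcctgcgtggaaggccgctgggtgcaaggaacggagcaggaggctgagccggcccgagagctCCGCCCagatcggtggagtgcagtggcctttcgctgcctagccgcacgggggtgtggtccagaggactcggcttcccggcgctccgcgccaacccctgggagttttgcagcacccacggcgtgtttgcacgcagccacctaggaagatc
Slc22a5: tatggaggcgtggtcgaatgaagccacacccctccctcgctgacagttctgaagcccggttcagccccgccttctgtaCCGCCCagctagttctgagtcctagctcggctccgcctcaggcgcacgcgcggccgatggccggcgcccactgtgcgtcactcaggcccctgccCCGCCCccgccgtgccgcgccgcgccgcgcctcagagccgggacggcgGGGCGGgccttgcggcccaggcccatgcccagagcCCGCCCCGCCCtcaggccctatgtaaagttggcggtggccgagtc

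AGGTCA was in 2 of the 7 promoters, Slco1a1 and Abcc2, and in 16.3% of 32851 promoters. GGGCGG was in 3 of the 7, Slc22a4, Slc22a5 and Slco4c1, and in 35.7% of all promoters. The HNF1 half-site GTTAAT was in 0 of the 7 and in 7.10% of all, and the HNF4 element CAAAGTCCA in 0 of the 7 and in 0.475% of all. GC content was 42.0% in Slco1a1, 45.0% in Abcc2, 69.0% in Slc22a4 and 72.7% in Slc22a5, against a median of 52.7%. These matches are letters in this window, and no factor was measured on them.

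The lists of other transporters of the same families held 47 genes. Of the 38 that could be tested, edgeR's quasi-likelihood test called 19 lower and 8 higher in HN against Control (14.7% and 17.7% of all genes tested), with a median log2 fold change of −0.95 against 0.00 for all genes. PEC against HN gave 15 called higher and 1 lower (13.4% and 15.3% of all genes tested), median 0.70 against −0.02, and 9 higher without HN 4. In PEC against Control it called 15 lower and 9 higher (17.4% and 18.9% of all genes tested), median 0.17 against 0.04, so 37.5% of the calls were higher, and 50% with library totals. The 1 gene called lower in PEC against HN was Abcc3, and that call was lost after removal of length and GC dependence. Without PEC 1, 2 genes were called lower. The 9 genes with too few counts were Slc22a20, Slc22a16, Slco1b2, Slco1c1, Slco6b1, Slco6c1, Slco6d1, Abcb11 and Abcc12.

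The counts of each list below stand beside those same shares of all genes tested, and in lists this small a few calls are near them. Of 12 other organic anion carriers of the SLC22 family tested, 10 were called lower and 0 higher in HN against Control (median −2.48). In PEC against HN, 8 were called higher and 0 lower (median 1.22), and in PEC against Control 9 were called lower and 0 higher (median −1.60). Slc22a6, organic anion transporter 1, the classic basolateral anion exchanger, was at 250, 207 and 266 normalised FPKM in Control 2, 4 and 5, 44.6, 54.7 and 42.9 in HN 4, 8 and 12, and 102, 117 and 61.0 in PEC 1, 2 and 3. The 3 groups did not overlap. On the deposited FPKM the PEC and HN ranges of Slc22a6 overlapped. It fell in HN mice (log2 fold change −2.32 ± 0.23, adjusted p = 4.81e-05) and rose in PEC against HN (0.99 ± 0.22, adjusted p = 0.00649). Slc22a8, organic anion transporter 3, was at 76.7, 91.0 and 75.1 in the Control libraries in the same order. It was at 26.5, 23.4 and 22.0 in the HN libraries and at 98.1, 88.9 and 78.5 in the PEC libraries. PEC and Control overlapped, and HN was below both. It fell in HN mice (−1.73 ± 0.12, adjusted p = 8.24e-06) and rose in PEC against HN (1.90 ± 0.12, adjusted p = 2.30e-05), and its PEC against Control value was 0.17 ± 0.12 (not called), or −0.09 after removal of length and GC dependence.

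Slc22a12, the urate reabsorbing carrier of the luminal membrane, was the most abundant of all 56 transporters in Control. Its level was 822, 619 and 739 normalised FPKM in Control 2, 4 and 5, 103, 141 and 98.8 in HN 4, 8 and 12, and 184, 212 and 143 in PEC 1, 2 and 3. Control was highest and HN lowest, and PEC 3 was just above HN 8. On the deposited FPKM the PEC and HN ranges of Slc22a12 overlapped. It fell in HN mice (−2.65 ± 0.19, adjusted p = 1.04e-05). Its rise in PEC against HN (0.67 ± 0.18, adjusted p = 0.0181) was not called without HN 4 (0.59), HN 12 (0.57), PEC 1 (0.64) or PEC 2 (0.54), nor with library totals (0.47). Among the other SLC22 anion carriers tested, those with a larger fall than Slc22a12 in HN against Control were Slc22a19 (−3.55 ± 0.33, adjusted p = 3.87e-05), Slc22a26 (−3.54), Slc22a30 (−3.44), Slc22a28 (−3.26) and Slc22a22 (−3.15 ± 0.26, adjusted p = 1.74e-05).

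Of 9 other cation carriers tested, 4 were called lower and 2 higher in HN against Control (median −0.85). In PEC against HN 4 were called higher and 0 lower (median 0.71), and in PEC against Control 4 higher and 2 lower (median 0.35). The fit of all 9 libraries and the fits that each left out 1 library made 10 fits. In PEC against HN, Slc47a2 was called in 3 of these 10, the fit of all libraries included, and Slc22a17 in 6. In PEC against Control, Slc29a4 was called in 3 of the 10, again with the fit of all libraries included. Slc22a21, the neighbour of Slc22a4 and Slc22a5, was at 2.31, 1.94 and 2.69 normalised FPKM in Control 2, 4 and 5, 0.985, 1.52 and 1.27 in HN 4, 8 and 12, and 4.37, 4.15 and 4.34 in PEC 1, 2 and 3. PEC was above Control with no overlap, unlike in Slc22a4 and Slc22a5. It rose in PEC against Control (0.93 ± 0.18, adjusted p = 0.00280), and its fall in HN against Control (−0.85 ± 0.18, adjusted p = 0.00505) was not called with library totals.

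Of 8 other SLCO carriers tested, 3 were called lower and 3 higher in HN against Control (median 0.01), 1 higher and 0 lower in PEC against HN (median −0.06), and 2 higher and 3 lower in PEC against Control (median 0.27). Slco1a6, a neighbour of Slco1a1, fell in HN mice from 69.3 to 13.9 normalised FPKM (−2.29 ± 0.20, adjusted p = 2.30e-05, no overlap). Its value in PEC against HN was 0.53 ± 0.19 (adjusted p = 0.0523, not called). Slco1a4 fell by 2.63 ± 0.40 on the log2 scale (adjusted p = 6.74e-04). Its rise in PEC against HN (1.29 ± 0.39) was not called without HN 4 (1.15), HN 8 (1.13), PEC 1 (1.22) or PEC 3 (1.07). Slco5a1 was called higher in HN mice from few counts, which were 9, 5 and 0 in Control.

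Of 9 other ABC exporters tested, 2 were called lower and 3 higher in HN against Control (median 0.36), 2 higher and 1 lower in PEC against HN (median 0.11), and 3 higher and 1 lower in PEC against Control (median 0.47). Abcg2, the luminal exporter of urate, fell in HN mice from 58.6 to 24.5 normalised FPKM with no overlap (−1.23 ± 0.11, adjusted p = 2.42e-05). It was 25.5 in PEC, with a PEC against HN value of 0.08 ± 0.10 (not called), or −0.12 with library totals and 0.85, called, after removal of length and GC dependence. Abcc3, a basolateral exporter of conjugates, was at 0.415, 0.325 and 0.334 normalised FPKM in Control 2, 4 and 5, 2.88, 3.02 and 3.26 in HN 4, 8 and 12, and 1.81, 1.53 and 2.11 in PEC 1, 2 and 3. HN was highest and Control lowest with no overlap, the reverse of Abcc2. It rose in HN mice (3.10 ± 0.18, adjusted p = 3.56e-06) and fell in PEC against HN (−0.73 ± 0.16, adjusted p = 0.00707). That fall was not called after removal of length and GC dependence. Abcc4, an exporter of cyclic nucleotides and urate, rose in HN mice from 6.20 to 11.6 (0.93 ± 0.12, adjusted p = 3.14e-04, no overlap). Abcb1b was not called in HN against Control (0.36 ± 0.42) or PEC against HN (0.11).

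The regulators and scaffolds listed are nuclear receptors and other transcription factors known for control of drug transporter genes, the receptor Prlr, and the PDZ proteins Pdzk1 and Slc9a3r1, which hold carriers at the luminal membrane. Of 16 tested, 10 were called lower and 2 higher (Ahr and Prlr) in HN against Control, with a median log2 fold change of −1.06 against 0.00 for all genes. The call of Prlr (2.01 ± 0.65, adjusted p = 0.0332, no overlap) was lost without Control 2 (1.86), HN 4 (1.87), HN 8 (2.13) or HN 12 (2.02), and Prlr was at 3.04 without Control 4 and at 1.53 without Control 5, called in both. Without the 3 libraries with adipose marker RNA Prlr was at 1.87 and not called. In PEC against HN, 6 were called higher and 4 lower (median −0.07), and in PEC against Control 1 higher and 9 lower (median −0.97). Hnf4a, a main factor of proximal tubule identity, was at 230, 214 and 203 normalised FPKM in Control 2, 4 and 5, 72.1, 68.7 and 74.9 in HN 4, 8 and 12, and 102, 117 and 106 in PEC 1, 2 and 3. The groups did not overlap, with PEC between the others. It fell in HN mice (−1.56 ± 0.09, adjusted p = 3.27e-06). Its rise in PEC against HN (0.61 ± 0.09, adjusted p = 6.61e-04) was not called under several alternatives, including library totals (0.41), no filter (0.58), without HN 8 (0.57) and without PEC 2 (0.56).

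Ppara, the receptor for fatty acids, was at 16.0, 18.7 and 18.9 normalised FPKM in Control 2, 4 and 5, 9.66, 5.81 and 4.86 in HN 4, 8 and 12, and 1.66, 2.41 and 1.53 in PEC 1, 2 and 3. It was lowest in PEC, with no overlap. It fell in HN against Control (−1.38 ± 0.25, adjusted p = 0.00211) and again in PEC against HN (−1.84 ± 0.26, adjusted p = 6.64e-04). Ahr, the receptor for aromatic hydrocarbons, was at 1.76, 1.76 and 1.62 in the Control libraries in the same order, at 5.51, 5.19 and 4.75 in the HN libraries and at 1.67, 1.41 and 2.33 in the PEC libraries. HN was above both other groups, which overlapped. It rose in HN mice (1.61 ± 0.18, adjusted p = 9.90e-05) and fell in PEC against HN (−1.49 ± 0.18, adjusted p = 2.74e-04). Nr1i2, the pregnane X receptor, rose in PEC against HN (1.27 ± 0.20, adjusted p = 0.00113, no overlap). Its HN against Control value of −0.24 ± 0.20 was not called, and was 0.32 with library totals. Pdzk1 fell in HN mice from 333 to 97.1 (−1.75 ± 0.16, adjusted p = 3.81e-05, no overlap). Its rise to 160 in PEC (0.73 ± 0.16, adjusted p = 0.00644) was not called with library totals (0.53).

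**Figure D3:**
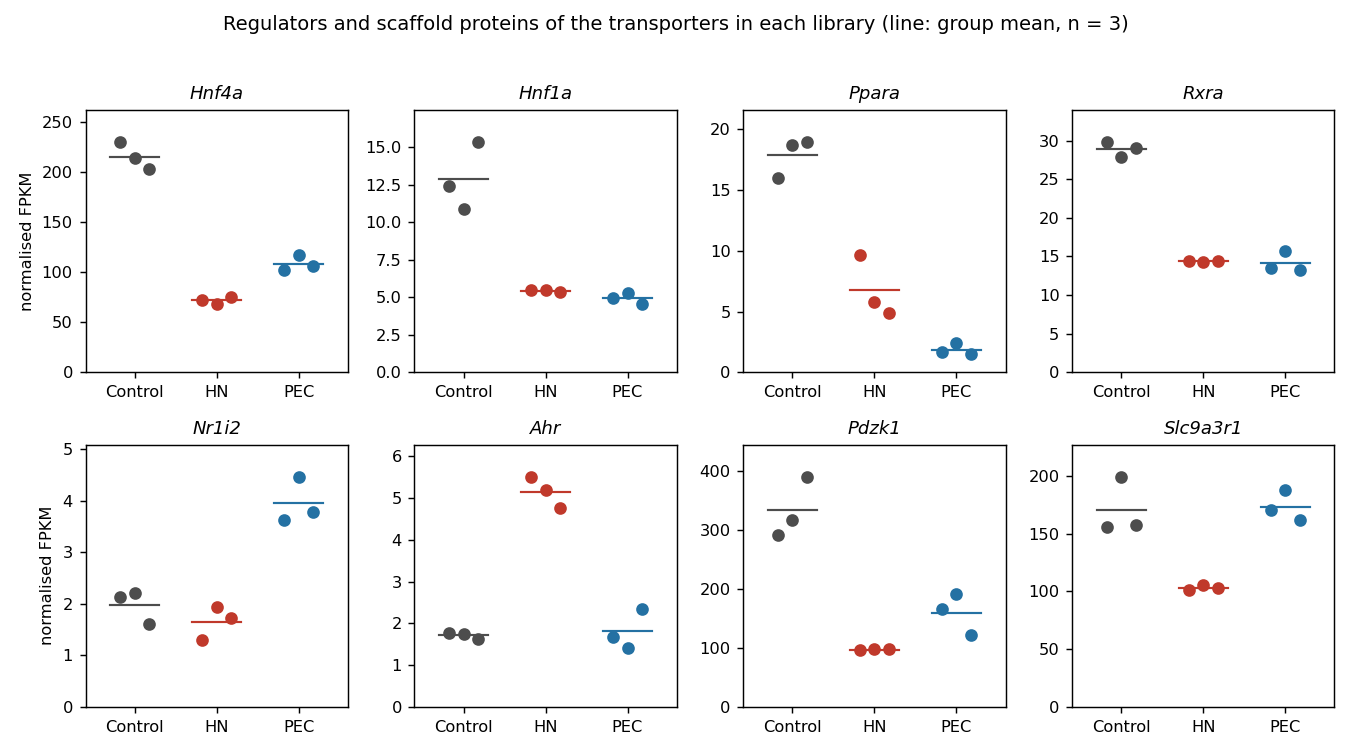
Normalised FPKM, on axes that start at 0, of regulators and scaffolds in each library, with lines at group means (n = 3). Hnf4a in PEC (102 to 117) lies between HN and Control, Ppara is lowest in PEC (1.53 to 2.41), and Ahr is highest in HN (4.75 to 5.51).

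Marker lists of kidney cell types are given beside the transporters. Of 12 proximal tubule markers, edgeR called 9 lower and 1 higher (Slc13a1, 0.78 ± 0.10) in HN against Control, median −1.82. PEC against HN gave 8 called higher and 0 lower, median 0.78, and in PEC against Control 1 higher and 8 lower, median −0.90. Their summed level was 33200, 32080 and 51780 normalised FPKM in Control 2, 4 and 5, 3262, 5091 and 4076 in HN 4, 8 and 12, and 13640, 19410 and 12440 in PEC 1, 2 and 3. The groups stood in the order of the 9 transporters, with no overlap. Kap, known for its control by androgen, was the most abundant in every library and made up most of the sum, and no marker was at 0. The other 11 markers summed to 2952, 3245 and 3485 in the Control libraries in the same order, to 829, 764 and 815 in the HN libraries and to 1832, 2090 and 1395 in the PEC libraries, also with no overlap. The part of the proximal tubule markers in the results on the transporters was not tested.

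Of 7 tubular injury markers, 6 were called higher and 0 lower in HN against Control (median 4.64), 2 lower and 0 higher in PEC against HN (median −0.55), and 6 higher and 0 lower in PEC against Control (median 3.94). Their summed level was 492, 529.8 and 462 normalised FPKM in Control 2, 4 and 5, 10420, 8943 and 8937 in HN 4, 8 and 12, and 7810, 8175 and 6545 in PEC 1, 2 and 3. Spp1 was the most abundant throughout, and none was at 0. Of 7 leukocyte markers, 7 were called higher in HN against Control (median 3.35), 4 lower in PEC against HN (median −1.08) and 5 higher in PEC against Control (median 1.85). Their sums were 37.6, 39.9 and 37.6 in the Control libraries in the same order, 767, 753 and 649 in the HN libraries and 295, 309.8 and 394 in the PEC libraries, with Lyz2 or C1qa the most abundant and none at 0. Of 5 fibroblast markers, 5 were called higher in HN against Control (median 1.40), 3 lower in PEC against HN (median −0.74) and 5 higher in PEC against Control (median 1.37). Their sums were 47.4, 44.9 and 43.6 in the Control libraries, 247, 246 and 225 in the HN libraries and 146, 164 and 135 in the PEC libraries, with Acta2 or Col3a1 the most abundant and none at 0. The sums of the injury, leukocyte and fibroblast lists were thus lowest in Control and highest in HN, although single markers such as Acta2, Lcn2 and Cdkn1a did not follow that order in every library, and their part in the transporters' values was not tested.

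Of 9 markers of other tubule segments, 6 were called lower in HN against Control (median −0.67), 4 higher in PEC against HN (median 0.48), and 1 higher and 4 lower in PEC against Control (median 0.08). Of 5 podocyte and endothelial markers, 1 was called lower in HN against Control (median −0.15), 1 higher in PEC against HN (median 0.01) and 1 lower in PEC against Control (median −0.12). The 4 liver markers, with Serpina1a the most abundant, summed to 45.2, 65.3 and 28.8 normalised FPKM in Control 2, 4 and 5, to 41.3, 35.9 and 30.9 in HN 4, 8 and 12, and to 80.5, 71.8 and 95.5 in PEC 1, 2 and 3. PEC libraries were the highest. Of the 3 tested, 2 were called lower in HN against Control (median −1.77), 3 higher in PEC against HN (median 1.77) and 1 higher in PEC against Control (median 0.77). Cps1, the defining liver enzyme, was at 0 in 7 of 9 libraries.

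**Figure D4:**
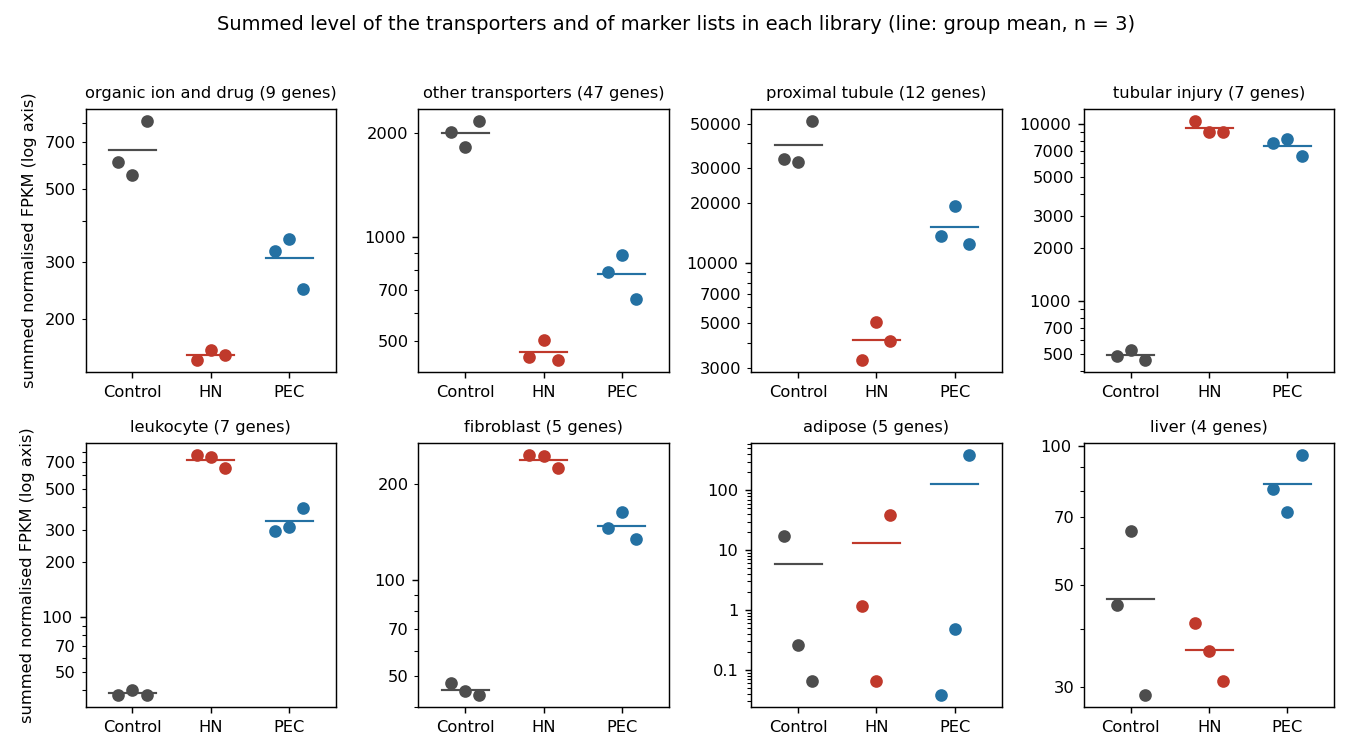
Summed normalised FPKM of the 9 transporters, the other 47 transporters and the marker lists in each library, on log axes, with lines at group means (n = 3). The 9 transporters and the proximal tubule markers are lowest in HN, while the injury, leukocyte and fibroblast sums are lowest in Control, and adipose markers are high in Control 2, HN 12 and PEC 3.

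The genes nearest in pattern were found by the root mean square difference of log2 TMM-scaled counts relative to the Control mean, over the 9 libraries and among 21392 genes. Abcc2 was nearest to Sirt3 (0.0926) and Hnf4a (0.0981), Slc22a5 to Akr7a5 (0.0988) and Cyp2j5 (0.101), and Slc22a4 to Kyat3 (0.112) and Acss2 (0.117). Slc22a2 was nearest to Aifm3 (0.113) and Ggt1 (0.118). Slc47a1 was nearest to the exporter Abcc6 (0.124) and Dao (0.133), and Slco4c1 to Cox8a (0.125) and Slc12a1 (0.133). The other 3 had no gene as close: the nearest to Abcb1a was Gm45709 (0.215), to Slc22a7 Akr1c14 (0.635) and to Slco1a1 AA536875 (0.678).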

How the data were processed

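The authors deposited counts and FPKM for 55385 genes. The submitters' processing notes name Bowtie 0.12.2, mm8 and mm9, while the table's coordinates are GRCm38 (51954 of 55144 genes identical to GENCODE M21). Members and lists were chosen with earlier results of these data known. For the members, these included the changes described here. For the other transporters, values were not seen when their lists were written. Counts of all 9 libraries were fitted together with edgeR 4.0.16 (R 4.3.3; TMM scaling, filterByExpr with minimum count 10 and total 15, quasi-likelihood test, two-sided), with Benjamini-Hochberg adjustment over 21392 genes. Standard errors are the log2 fold change over the square root of F. Lists covered other transporters (organic anion, organic cation, SLCO, ABC), regulators and scaffolds, proximal tubule, other tubule segments, tubular injury, podocyte and endothelium, leukocyte, fibroblast, adipose and liver. Named genes were the 8 largest changes per list and comparison, those with mean FPKM of at least 20, and the 2 nearest per member; other names were picked after their values were seen. Alternatives were DESeq2 1.42.0, library totals with and without mitochondrial genes, no filter, 2 groups alone, limma 3.58.1 on log2 FPKM, removal of length and GC dependence, unadjusted p, a fold change of 2 and each library left out. The refit after removal of length and GC dependence used limma on TMM-scaled log2 counts in place of edgeR. The pipeline was tested on simulated data, where many changed genes were not called. Recovery was below the level first set as acceptable, and that level was then lowered. A gene not called is therefore not shown to be unchanged. Python 3.11.15 with pandas 2.3.3, numpy 2.4.6 and matplotlib 3.10.9 made the summaries and plots.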

Additional observations from a re-analysis of the deposited data

How the results depend on the processing

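No called fold change changed sign among the 9 transporters and the other named transporters, regulators and scaffolds that were refitted. The refit after removal of length and GC dependence used limma in place of edgeR. In it, the share of all calls that were higher crossed 50% in each comparison. That share went from 54.5% to 40.8% in HN against Control and from 46.8% to 54.1% in PEC against HN. In PEC against Control it went from 52.1% to 41.9%. Of 567 refits of the 9 transporters' fold changes, 24 lost a call (in 5 of the changes), 9 gained one and 4 changed sign, 0 of them among called values; of 2805 refits of other named genes, 197 lost a call, 36 gained one and 71 changed sign, 0 among called values. With a fold change of at least 2, which calls fewer genes by construction, all genes called lower in HN against Control went from 3154 to 1902, higher in PEC against HN from 2875 to 1771, lower in PEC against HN from 3266 to 1823 and lower in PEC against Control from 3731 to 2089; the 9 transporters called higher in PEC against HN went from 4 to 2, and other transporters from 8 to 4 (higher, HN against Control), from 1 to 0 (lower, PEC against HN) and from 9 to 5 (higher, PEC against Control). With library totals, all genes called higher and lower were 7707 and 1287 in HN against Control (3777 and 3154 with TMM; 85.7% against 54.5% of calls higher) and 6414 and 1962 in PEC against Control (4053 and 3731; 76.6% against 52.1%), and 29.6% against 46.8% of calls were higher in PEC against HN. Without mitochondrial genes in the totals the counts were 6392 and 1544 (80.5% higher), and 6139 and 2080 (74.7%). With limma on log2(FPKM + 1), all genes called lower were 1024 in HN against Control and 1485 in PEC against Control, and 1356 were higher in PEC against HN, with 2 of the 9 transporters and 9 of the other transporters (15 with edgeR); with no filter these were 991, 1429, 1400, 2 and 7. With log2(FPKM + 0.1), all genes called higher and lower in HN against Control were 5906 and 1191, with 1 of the 9 transporters higher (0 with edgeR), 1683 were higher in PEC against HN and 1919 lower in PEC against Control. After removal of length and GC dependence, 4813 genes were lower in HN against Control, 5 other transporters were higher (17.9% of their calls, against 29.6%), and in PEC against HN 0 of the 9 and 0 other transporters were lower. Leaving out each library gave 0 to 1 of the 9 lower, 9 to 17 other transporters higher and 1 to 2 lower in PEC against HN. Without the 3 libraries with adipose marker RNA, an alternative chosen after seeing the data, 0 of the 9 were lower in PEC against HN. The cause was not tested in any of these. No paired analysis was possible because Control and HN share library number 4 alone, Control and PEC number 2 alone, and HN and PEC none. An exact permutation test of 3 against 3 cannot go below 0.10. Slco5a1 had 9, 5 and 0 counts in Control.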

Other observations

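Ratios of normalised FPKM between related genes within a library stood apart between some groups and overlapped between others, and were not tested. Slc22a2 over its export partner Slc47a1 was 0.652, 0.592 and 0.667 in Control 2, 4 and 5, 0.485, 0.530 and 0.474 in HN 4, 8 and 12, and 0.483, 0.662 and 0.520 in PEC 1, 2 and 3. HN lay below Control, and PEC overlapped both. Slc22a5 over Slc22a4 ran from 5.69 to 7.33, from 5.31 to 6.44 and from 4.55 to 5.98, with overlaps. Slc22a21 over Slc22a4 ran from 0.114 to 0.177 in Control, from 0.205 to 0.298 in HN and from 0.403 to 0.538 in PEC, with no overlap. Abcb1a over Abcb1b ran from 0.760 to 1.25 in Control, from 0.785 to 1.10 in HN and from 0.323 to 0.497 in PEC, where it was lowest in every library. Slco1a1 over Slco1a6 ran from 0.852 to 1.78 in Control, from 0.0629 to 0.191 in HN and from 0.0644 to 0.333 in PEC.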
